A study of Mus musculus with 10 samples.

Results

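The genes described here are 32 protein-coding genes of mouse chromosome 16 that lie on both sides of Rbfox1, 12 before it and 20 after it in chromosome order. They were chosen by a list drawn up after an earlier fit of the same comparison: some of them were selected on a small p-value between the genotypes in that fit, and the list does not say which. All 32 were found among the 30935 gene identifiers of the table, and 29 of them passed the filter on low counts and were tested with 15288 genes in all. Because the genotype comparison helped to pick the members, their differences between genotypes are given as a description, and no test of them is offered.

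RNA was sequenced from the midbrain of embryonic day 14.5 mice. The deletion group held 5 samples homozygous for a deletion of HAR.321 in the Rbfox1 locus (Rbfox1 ΔHAR.321/ΔHAR.321; libraries 2, 3, 4, 5 and 6), and the wild-type group held 5 Rbfox1 +/+ samples (libraries 1, 2, 4, 5 and 6). The title of the series places the work in the study of human accelerated regions, stretches of DNA that are conserved among vertebrates and changed quickly on the human lineage, and of transcriptional enhancers in this locus. The sources used here give no strain, sex, litter or day of library preparation, and both genotypes were taken at the same stage.

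Rbfox1 encodes a neuronal RNA-binding protein that controls alternative splicing, and it is one of the longest genes of the mammalian genome. It lies in a stretch with few other genes, flanked by denser clusters whose order is largely shared with the short arm of human chromosome 16. Enhancers can act on genes at a distance, so the neighbours of a gene are commonly measured when one of its regulatory elements is removed. The neighbours have no common function: they include sugar-nucleotide and glycosylation enzymes, histone modifiers and chaperones, ribosome and iron-sulphur assembly factors, lipid kinases and membrane-traffic proteins, and the master regulator of MHC class II genes.

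Promoter sequences are shown for 4 members whose values are described further on: Pmm2, which starts head to head with Tmem186, Ubn1, which starts head to head with Glyr1, Snn, the most abundant member per kilobase, and Pi4ka, the member with the smallest p-value. The sequences are from RefSeq on GRCm38.p6, run 5′ to 3′ on the strand of the gene from 250 bases before the start to 50 bases after it, and carry in capitals every match, on either strand, to CCGGAAGT (ETS family), CCAAT (the site of factor NF-Y), TATAAA (the TATA box), CGCATGCG (the core of the NRF1 site), AAGATGGCG (YY1) and CCGCCC (GC box). Neighbouring capitals can belong to 2 overlapping or adjoining matches. The counts themselves were made on another build, mm39.
Pmm2, chr16:8637457-8637756, plus strand: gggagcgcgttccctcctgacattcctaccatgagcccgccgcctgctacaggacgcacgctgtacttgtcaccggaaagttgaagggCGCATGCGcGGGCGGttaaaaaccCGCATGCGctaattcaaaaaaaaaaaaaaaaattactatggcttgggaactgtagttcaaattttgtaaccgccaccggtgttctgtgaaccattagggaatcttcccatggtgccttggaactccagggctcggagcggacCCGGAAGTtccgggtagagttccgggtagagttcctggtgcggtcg
Ubn1, chr16:5049807-5050106, plus strand: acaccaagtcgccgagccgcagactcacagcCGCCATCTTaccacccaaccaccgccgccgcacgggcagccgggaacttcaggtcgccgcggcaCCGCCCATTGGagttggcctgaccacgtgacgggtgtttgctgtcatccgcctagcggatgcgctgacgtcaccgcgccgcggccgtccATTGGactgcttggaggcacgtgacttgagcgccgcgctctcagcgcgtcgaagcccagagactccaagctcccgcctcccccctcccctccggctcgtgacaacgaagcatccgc
Snn, chr16:11066048-11066347, plus strand: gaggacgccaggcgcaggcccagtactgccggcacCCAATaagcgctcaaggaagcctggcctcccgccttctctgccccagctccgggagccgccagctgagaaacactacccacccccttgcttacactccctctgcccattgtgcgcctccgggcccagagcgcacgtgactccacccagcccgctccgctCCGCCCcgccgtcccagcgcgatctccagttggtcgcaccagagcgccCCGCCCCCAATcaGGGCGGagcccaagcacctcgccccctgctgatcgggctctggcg
Pi4ka, chr16:17405816-17406115, minus strand: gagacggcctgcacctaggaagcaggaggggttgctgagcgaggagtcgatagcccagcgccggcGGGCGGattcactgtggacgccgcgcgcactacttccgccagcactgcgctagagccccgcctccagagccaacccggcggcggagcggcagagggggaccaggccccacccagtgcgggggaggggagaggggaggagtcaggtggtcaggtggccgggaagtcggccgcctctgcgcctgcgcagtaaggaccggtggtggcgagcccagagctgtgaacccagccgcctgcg

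The Pmm2 window holds a pair of NRF1 cores, an ETS match and a GC box. Tmem186 starts close by on the other strand (98 bases away by RefSeq gene coordinates). Those coordinates need not match the starts used for the promoter windows. RefSeq lists 2 windows for Tmem186: one covers the same matches as the Pmm2 window, and the other holds 1 ETS match with no NRF1 core and no GC box. The Ubn1 window holds a YY1 match, a pair of CCAAT boxes and a GC box, the Snn window 2 CCAAT boxes and 3 GC boxes, and the Pi4ka window shown 1 GC box. A second RefSeq window of Pi4ka, not shown, holds 1 CCAAT box and 1 TATA box with no GC box, at a GC content of 44.7%. RefSeq promoters were matched for 27 of the 32 members, as 32 sequences. Their median CpG count was 22 per 300 bases, against 7 over all 32851 promoters, and their median GC content was 61.0%, against 52.7%. GC boxes were present in 68.8% of member promoters and 35.7% of all promoters, CCAAT in 50% and 37.4%, the NRF1 core in 12.5% and 1.87%, the ETS sequence in 9.38% and 3.89%, the YY1 sequence in 3.12% and 1.4%, and TATAAA in 6.25% and 13.6%. The NRF1 core occurred in promoters of Mettl22, Tmem186, Pmm2 and Mrtfb, and the matches of Pmm2 and of one Tmem186 window are the same ones. The set of all promoters was not filtered here by gene type or expression, while the members are protein-coding and 29 of 32 passed the filter. The differences are therefore not read as a trait of genes around Rbfox1. These are letter matches only.

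Sequencing depth was even, with 16246892 to 20255728 counted reads per library, and normalised read counts (CPM, reads of a gene per 1000000 counted) are given on library sizes scaled by the trimmed mean of M values. No pair of libraries agreed within sampling noise. All 14 genes of the midbrain list were tested (5 higher and 9 lower in deletion midbrain), and none passed the test. They summed to 4420 to 4870 CPM in deletion libraries and 4700 to 4840 CPM in wild-type libraries. Most of this sum came from Tubb3 (2424 CPM in deletion, 2556 CPM in wild-type) and Stmn2 (1255 and 1272 CPM), general neuronal genes. En1, En2 and Otx2 averaged 64.8, 139 and 176 CPM in deletion and 72.4, 151 and 196.5 CPM in wild-type libraries. Forebrain markers summed to 88.5 to 115 CPM in deletion and 83.0 to 120 CPM in wild-type libraries, mainly from Emx2 and Six3. Hindbrain Hox genes summed to 0 to 0.838 CPM in deletion and 0 to 0.315 CPM in wild-type libraries. Hoxb2, Hoxb3 and Hoxa3 were at 0 in every library. All 7 tested red blood cell markers averaged higher in deletion libraries, at a summed 2230 to 2980 CPM in deletion against 1700 to 2550 CPM in wild-type libraries, and none passed the test. Their part in the values below was not tested. Over all genes, 9 of 15288 passed an adjusted p of 0.05 by edgeR's quasi-likelihood test. In whole tissue, a lower value can come from fewer cells that express a gene or from less RNA per cell, and these cannot be told apart. The counting is not stated to use strand, so members whose ends overlap on opposite strands (Alg1 with Eef2kmt, Nubp1 with Tvp23a, Txndc11 with Snn) may share reads.

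Rbfox1 itself, the gene in whose locus the element was deleted, averaged 161 ± 13.7 CPM in deletion and 149 ± 11.0 CPM in wild-type midbrain (SD, n = 5 each). The log2 fold change was 0.11 (SE 0.07, 95% interval -0.03 to 0.26), and edgeR gave an adjusted p of 0.606. The values of the 2 genotypes overlapped.

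In wild-type midbrain the members spanned a wide range of levels per kilobase of their longest annotated transcript. Snn was highest at 93.6 CPM per kb, followed by Carhsp1 at 76.1, Glyr1 at 58.3, Rsl1d1 at 52.4 and Mgrn1 at 47.8 CPM per kb. The lowest tested members were Ciita at 0.470, Sec14l5 at 0.740 and Emp2 at 1.62 CPM per kb. By the mean over all 10 libraries, 18 of the 29 tested members lay at or above the median level per kilobase of all tested genes. By the same mean 8 exceeded 100 CPM. The members' median level by that mean was 34.0 CPM, against 25.3 CPM over all genes. Their median biological coefficient of variation was 9.65%, against 11.8%. For the 8 members above 100 CPM by that mean, the 95% interval of the log2 fold change was at most 0.16 wide on either side.

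**Figure D1:**
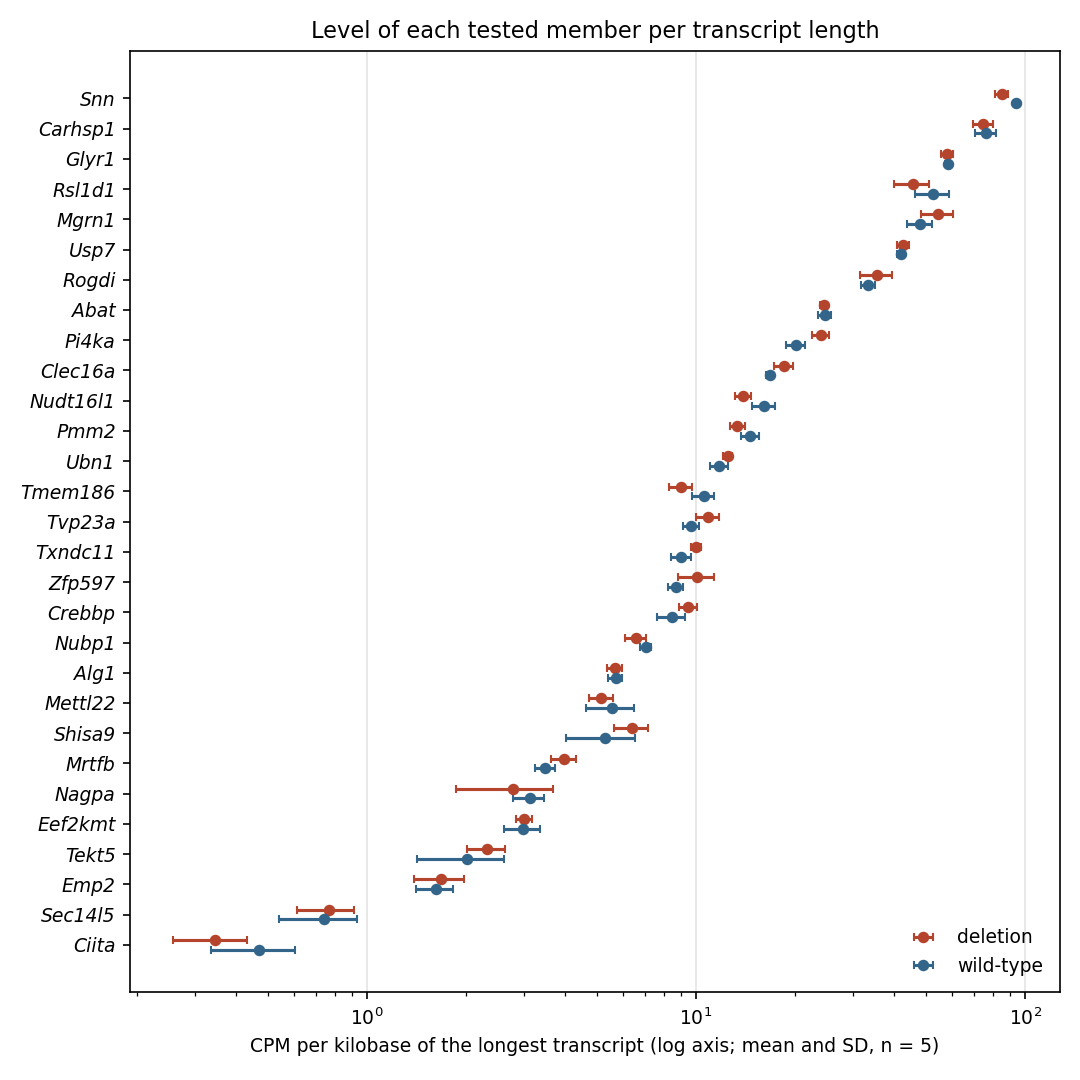
Level of each tested member per kilobase of its longest transcript on a log axis, in deletion and wild-type midbrain (mean ± SD, n = 5 each). Members run from Snn at 93.6 CPM per kb to Ciita at 0.470 CPM per kb in wild-type midbrain, and the genotypes lie close together at each member.

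None of the 29 tested members passed an adjusted p of 0.05 in edgeR, where 0.0589% of all tested genes did. An unadjusted p under 0.05 was reached by 10 members, against 10.5% of all genes. Of the 10, 6 averaged higher in deletion midbrain (Zfp597, Crebbp, Mgrn1, Clec16a, Mrtfb and Pi4ka), against 5.62% of all genes, and 4 averaged lower (Nudt16l1, Tmem186, Snn and Rsl1d1), against 4.92%. Nothing is read from these counts, since small p-values chose some of the members. The 13 smallest p-values of the 112 tested genes within 10 Mb of Rbfox1 all belong to members, and such p-values helped to choose them. The last of these was Txndc11, with an unadjusted p of 0.0598 and a log2 fold change of 0.15, and the first gene outside the list was Glis2, with 0.0606 and 0.19.

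Values were higher in deletion midbrain for 16 tested members and lower for 13, where 49.3% of all genes were higher. The members' median log2 fold change was 0.02, against -0.00 over all genes. The 5 libraries of one genotype did not overlap the 5 of the other for 4 members, where 2.49% of all genes did not. Of these, Clec16a, Txndc11 and Pi4ka were higher (1.22% of all genes) and Snn was lower (1.26%). In an alternative chosen after seeing the data, without deletion library 4, Zfp597 and Tvp23a joined them, making 6 members, where 6.38% of all genes did not overlap. DESeq2 called 1 of the 22 members to which it gave an adjusted p, Pi4ka, against 2.41% of all genes, and limma-voom called none, against 0%. With DESeq2's filtering set for a threshold of 0.05 the share over all genes was 3.23%, and with robust moderation limma-voom's was 0.0589%. Both of these settings were chosen after the default ones had been seen, and Pi4ka was the one member called by DESeq2 under both of its settings.

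**Figure D2:**
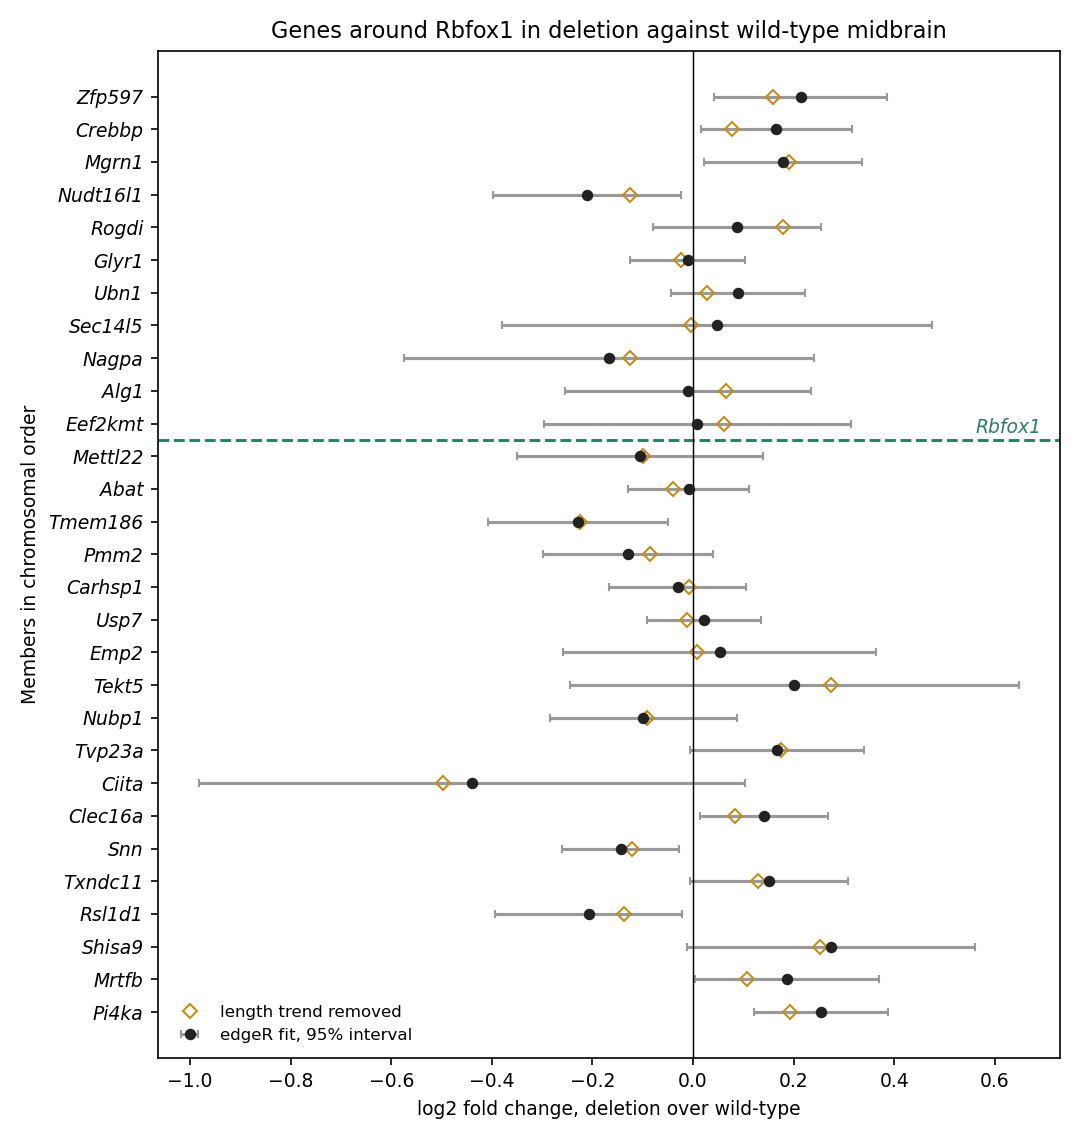
Log2 fold change of deletion over wild-type midbrain for the tested members (points, with 95% intervals), in chromosome order around Rbfox1. Open diamonds give the value with the length trend removed. The members within 10 genes of Rbfox1 lie between -0.23 (Tmem186) and 0.09 (Ubn1), and the value of Pi4ka is 0.26.

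By position, the 13 tested members within 10 protein-coding genes of Rbfox1 had a median log2 fold change of -0.01, with 5 higher and 8 lower, and 1 had an unadjusted edgeR p under 0.05. The 16 tested members farther away had a median of 0.16, with 11 higher and 5 lower, and 9 had such a p. Over all genes 10.5% had one. Nothing is read from this contrast, since p-values helped to pick the members and the list does not separate those picked for them. On the side before Rbfox1, 7 of 11 tested members were higher, and on the side after it 9 of 18 were.

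The members of glycosylation and lysosomal tagging showed small differences, with all 3 lower in deletion midbrain and a median log2 fold change of -0.13. Pmm2, the phosphomannomutase that makes mannose-phosphate for glycan building, had 31.5, 34.1, 31.2, 31.9 and 29.5 CPM in deletion libraries, against 35.5, 36.8, 30.8, 35.0 and 34.9 CPM in wild-type libraries. Wild-type library 4 lay among the deletion values, so the groups overlapped. On the log2 scale the fold change was -0.13 (SE 0.08). Alg1, which adds the first mannose to the lipid-linked glycan precursor, averaged 9.93 ± 0.535 CPM in deletion and 9.998 ± 0.488 CPM in wild-type midbrain. Nagpa, the enzyme that uncovers the mannose-phosphate tag of lysosomal enzymes, averaged 6.19 ± 2.02 CPM in deletion and 6.96 ± 0.750 CPM in wild-type midbrain, and its deletion libraries spread from 3.52 to 8.58 CPM. None of the 27 tested genes of the N-glycan precursor and mannose pathway passed the test: 12 were higher and 15 lower.

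Tmem186, a factor in the assembly of respiratory complex I, had 32.7, 28.2, 31.1, 32.9 and 27.5 CPM in deletion libraries, against 36.9, 35.3, 32.1, 39.5 and 35.0 CPM in wild-type libraries. Only wild-type library 4 lay within the range of the deletion libraries. The log2 fold change was -0.23 (SE 0.09, 95% interval -0.41 to -0.05). It stayed at -0.23 after a trend with transcript length was removed. None of the 5 tested partners in complex I assembly passed the test, with 2 higher and 3 lower. The smallest p among them belonged to Acad9, at 86.1 ± 3.48 CPM in deletion and 91.9 ± 6.49 CPM in wild-type midbrain. Abat, the transaminase that breaks down the inhibitory transmitter GABA, averaged 113 ± 2.81 CPM in deletion and 114 ± 4.89 CPM in wild-type midbrain, a log2 fold change of -0.01 (95% interval -0.13 to 0.11). None of the 5 tested genes of GABA synthesis, breakdown and transport passed the test, and all 5 averaged higher in deletion midbrain.

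The p-values that helped to choose members rest on each gene's own difference and spread, and did not use how 2 genes vary together within a genotype, which was compared for head-to-head neighbours. Within genotypes, log2 CPM of Tmem186 and Pmm2 had a Pearson r of 0.38 (exact permutation p = 0.297, adjusted over the 2 pairs 0.594) and a Spearman rho of 0.27 (exact permutation p = 0.461, adjusted 0.662) over 10 libraries. Without the 2 libraries farthest from the median of Tmem186, r was -0.69. Glyr1 and Ubn1, which start 119 bases apart by RefSeq gene coordinates, had r = 0.11 (exact permutation p = 0.721, adjusted 0.721) and rho = 0.15 (exact permutation p = 0.662, adjusted 0.662). Their r was -0.18 without the 2 farthest libraries. Neither relation passed the test, and the other 404 pairs of tested members had a median r of 0.04, from -0.91 to 0.85.

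**Figure D3:**
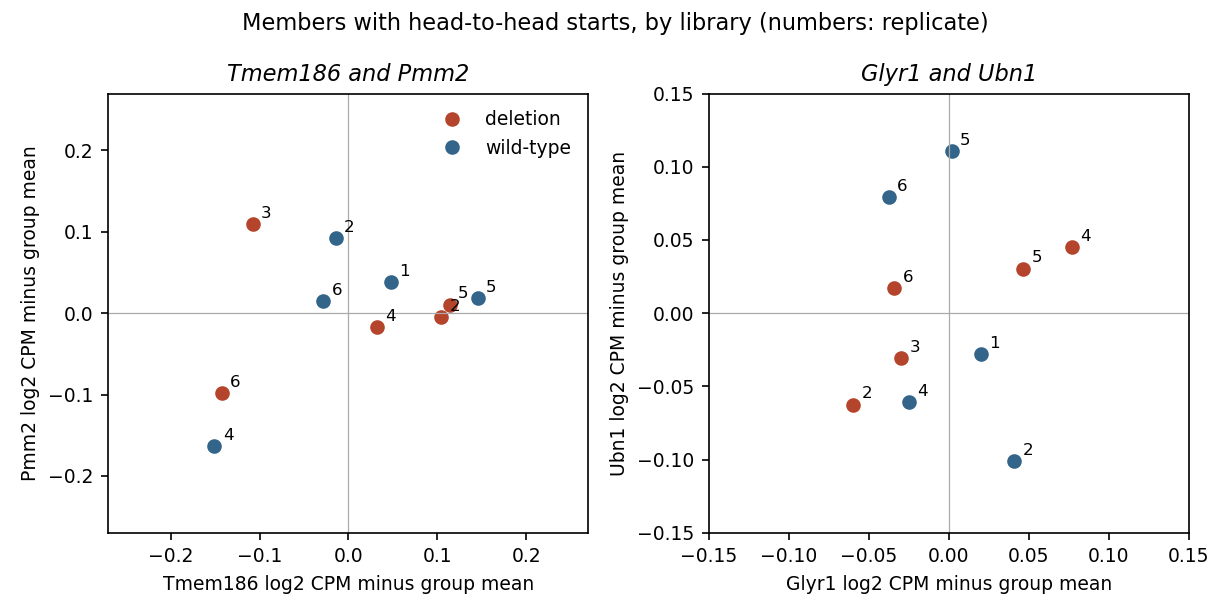
Log2 CPM of each head-to-head pair after subtraction of the genotype mean, 1 point per library, deletion and wild-type marked apart. The points of Tmem186 and Pmm2 (r = 0.38) and of Glyr1 and Ubn1 (r = 0.11) scatter widely.

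Among the chromatin and transcription members, 5 of 7 tested were higher in deletion midbrain, with a median log2 fold change of 0.09. Crebbp encodes the histone acetyltransferase CBP, whose loss of 1 copy causes Rubinstein-Taybi syndrome in people. Crebbp had 99.3, 105, 98.8, 96.5 and 112 CPM in deletion libraries, against 97.3, 100, 76.8, 91.1 and 91.1 CPM in wild-type libraries. The groups overlapped, with wild-type library 4 lowest. On the log2 scale the fold change was 0.17 (SE 0.07, 95% interval 0.02 to 0.32), and 0.08 after the length trend was removed. For Crebbp it was 0.04 with length and GC trends removed, and 0.11 without wild-type library 4. Zfp597, a zinc-finger protein, had 52.8, 60.6, 48.8, 56.0 and 67.0 CPM in deletion libraries, against 48.1, 48.1, 52.1, 46.1 and 51.4 CPM in wild-type libraries. Deletion library 4 alone lay within the wild-type range, and the log2 fold change was 0.21 (SE 0.08). Mrtfb, a coactivator of the serum response factor SRF, had 30.2, 36.9, 30.8, 34.9 and 31.9 CPM in deletion libraries, against 29.7, 30.7, 30.3, 28.5 and 25.5 CPM in wild-type libraries. Its lowest deletion library, at 30.2 CPM, lay below wild-type libraries 2 and 4, and the log2 fold change was 0.19 (SE 0.09), or 0.11 with the length trend removed.

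The other chromatin members differed little between genotypes. Usp7, a deubiquitinase that acts on the p53 regulator Mdm2, averaged 202 ± 8.28 CPM in deletion and 199 ± 4.66 CPM in wild-type midbrain, a log2 fold change of 0.02 (95% interval -0.09 to 0.14). Ubn1, a subunit of the HIRA histone chaperone, averaged 80.7 ± 2.50 CPM in deletion and 75.8 ± 4.82 CPM in wild-type midbrain. Glyr1, a nucleosome-binding cofactor of a histone demethylase, averaged 231 ± 9.41 CPM in deletion and 233 ± 5.19 CPM in wild-type midbrain. Ciita, the master activator of MHC class II genes, was scarce, at 2.07 ± 0.528 CPM in deletion and 2.83 ± 0.805 CPM in wild-type midbrain, and its log2 fold change of -0.44 had an interval of -0.98 to 0.10. Summed markers of antigen-presenting cells stood at 0.671 to 2.03 CPM in deletion and 0.615 to 1.60 CPM in wild-type libraries, and only 2 of the 6 listed Ciita targets passed the filter. Neither passed the test: H2-Eb1, an MHC class II chain, averaged 0.636 ± 0.182 CPM in deletion and 0.482 ± 0.240 CPM in wild-type midbrain, and H2-DMa was the lower of the pair by fold change, at -0.06. Atf7ip2, a relative of the SETDB1 partner Atf7ip, was not tested: it had 0, 7, 2, 0 and 3 reads in deletion libraries and 6, 2, 4, 0 and 3 reads in wild-type libraries.

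Partners of the chromatin members were also measured. None of the 11 tested HIRA and CBP partners passed edgeR's test, with 8 higher and 3 lower. Ep300, the close relative of Crebbp, averaged 123 ± 4.51 CPM in deletion and 102 ± 6.73 CPM in wild-type midbrain, a log2 fold change of 0.28 (SE 0.06, adjusted edgeR p 0.0757), and the groups did not overlap. Atf7ip averaged 186 ± 1.95 CPM in deletion and 159 ± 14.8 CPM in wild-type midbrain, a log2 fold change of 0.22 (SE 0.06). These 2 were called by DESeq2, at adjusted p-values of 0.00324 and 0.0489. With the length trend removed their log2 fold changes were 0.20 and 0.15. Over all partner lists, 73 of 77 genes were tested, none passed edgeR's test, 11 had an unadjusted p under 0.05 (8 higher and 3 lower), and limma-voom called none. Over all genes, 10.5% had such a p (5.62% higher and 4.92% lower), DESeq2 called 2.41%, and 2.49% had groups that did not overlap.

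The members that modify proteins or serve RNA, ribosomes and iron-sulphur assembly were mostly lower, 5 of 6, with a median log2 fold change of -0.10. Rsl1d1, a nucleolar protein of ribosome biogenesis, had 95.4, 92.9, 69.5, 95.4 and 88.6 CPM in deletion libraries, against 102, 88.4, 119, 106 and 94.0 CPM in wild-type libraries. The groups overlapped, and deletion library 4 was far below the rest. The log2 fold change was -0.21 (SE 0.09), and -0.13 without deletion library 4. Nudt16l1, an RNA-binding protein of the Nudix family that regulates DNA repair, had 24.4, 22.7, 21.6, 21.3 and 22.3 CPM in deletion libraries, against 22.6, 27.2, 27.7, 26.4 and 25.9 CPM in wild-type libraries. Wild-type library 1 lay among the deletion values, and the log2 fold change was -0.21 (SE 0.09), or -0.12 with the length trend removed.

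Nubp1, a scaffold on which cytosolic iron-sulphur clusters are built, averaged 21.6 ± 1.62 CPM in deletion and 23.2 ± 0.898 CPM in wild-type midbrain. Mettl22, a protein methyltransferase, averaged 17.1 ± 1.45 CPM in deletion and 18.4 ± 3.12 CPM in wild-type midbrain. Eef2kmt, which methylates the translation elongation factor eEF2, averaged 6.52 ± 0.359 CPM in deletion and 6.48 ± 0.823 CPM in wild-type midbrain. Carhsp1, a cold-shock-domain RNA-binding protein, averaged 213 ± 15.2 CPM in deletion and 217 ± 16.04 CPM in wild-type midbrain. The SDs of the 2 genotypes overlapped for each of these 4 genes. Of the 7 tested genes of cytosolic iron-sulphur assembly none passed the test, with 3 higher and 4 lower, Ciao2b having the smallest p at a log2 fold change of -0.23 (SE 0.11).

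Among the members of lipid metabolism, membrane traffic, ubiquitin and endosomes, 7 of 8 were higher in deletion midbrain, with a median log2 fold change of 0.15. Pi4ka, the lipid kinase that makes phosphatidylinositol phosphate at the plasma membrane, had 151, 150, 173, 157 and 163 CPM in deletion libraries, against 129, 148, 128, 126 and 135 CPM in wild-type libraries. All deletion libraries lay above all wild-type libraries, by the least between deletion library 3 and wild-type library 2. On the log2 scale the fold change was 0.26 (SE 0.06, 95% interval 0.12 to 0.39), and 0.19 with the length trend removed. The adjusted p was 0.102 in edgeR and 0.0115 in DESeq2. Both are given as description only, since p-values of this comparison helped to choose members. Pi4ka lies 86 protein-coding genes after Rbfox1 and shares a start region with Snap29, which begins within 1 kb of it. None of the 6 tested partners of its complex passed the test, 5 being higher and 1 lower, and Efr3b, a membrane anchor of the kinase, had the smallest p at 244 ± 5.33 CPM in deletion and 217 ± 15.6 CPM in wild-type midbrain.

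Snn encodes stannin, a small membrane protein tied to organotin toxicity, and is the most abundant member. It had 236, 250, 260, 236 and 234 CPM in deletion libraries, against 267, 274, 268, 269 and 266 CPM in wild-type libraries. All 5 deletion libraries lay below all 5 wild-type libraries, and wild-type libraries were tightly grouped. The log2 fold change was -0.14 (SE 0.06). Its neighbour Txndc11, an endoplasmic reticulum thioredoxin-domain protein that overlaps the end of Snn on the other strand, ran the other way, with 41.8, 40.7, 44.2, 44.1 and 41.8 CPM in deletion libraries, against 39.5, 40.7, 35.8, 40.4 and 35.2 CPM in wild-type libraries. Deletion library 3 at 40.73 CPM and wild-type library 2 at 40.71 CPM were almost equal, so the groups were barely apart. Its log2 fold change was 0.15 (SE 0.08).

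Clec16a, an endosomal and mitophagy protein, had 109, 112, 129, 113 and 114 CPM in deletion libraries, against 104, 108, 105, 104 and 102 CPM in wild-type libraries. The groups did not overlap, deletion library 4 stood above the rest, and the log2 fold change was 0.14 (SE 0.06), or 0.10 without that library. It was 0.08 with the length trend removed and 0.04 with length and GC trends removed. Mgrn1, an E3 ubiquitin ligase whose loss in mice causes a spongy neurodegeneration, had 172, 168, 200, 159 and 150 CPM in deletion libraries, against 156, 170, 145, 138 and 142 CPM in wild-type libraries. The groups overlapped, deletion library 4 was again the highest, and the log2 fold change was 0.18 (SE 0.08), or 0.11 without it. Tvp23a, a Golgi traffic protein, had 39.97, 37.2, 31.99, 34.7 and 36.2 CPM in deletion libraries, against 33.0, 32.4, 33.4, 29.1 and 32.3 CPM in wild-type libraries. Deletion library 4 lay within the wild-type range, and the log2 fold change was 0.17 (SE 0.08). Rogdi, whose human counterpart is mutated in Kohlschütter-Tönz syndrome, averaged 50.6 ± 5.59 CPM in deletion and 47.7 ± 2.28 CPM in wild-type midbrain, and Sec14l5, a Sec14-like lipid-binding protein, averaged 4.39 ± 0.867 CPM in deletion and 4.25 ± 1.13 CPM in wild-type midbrain.

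**Figure D4:**
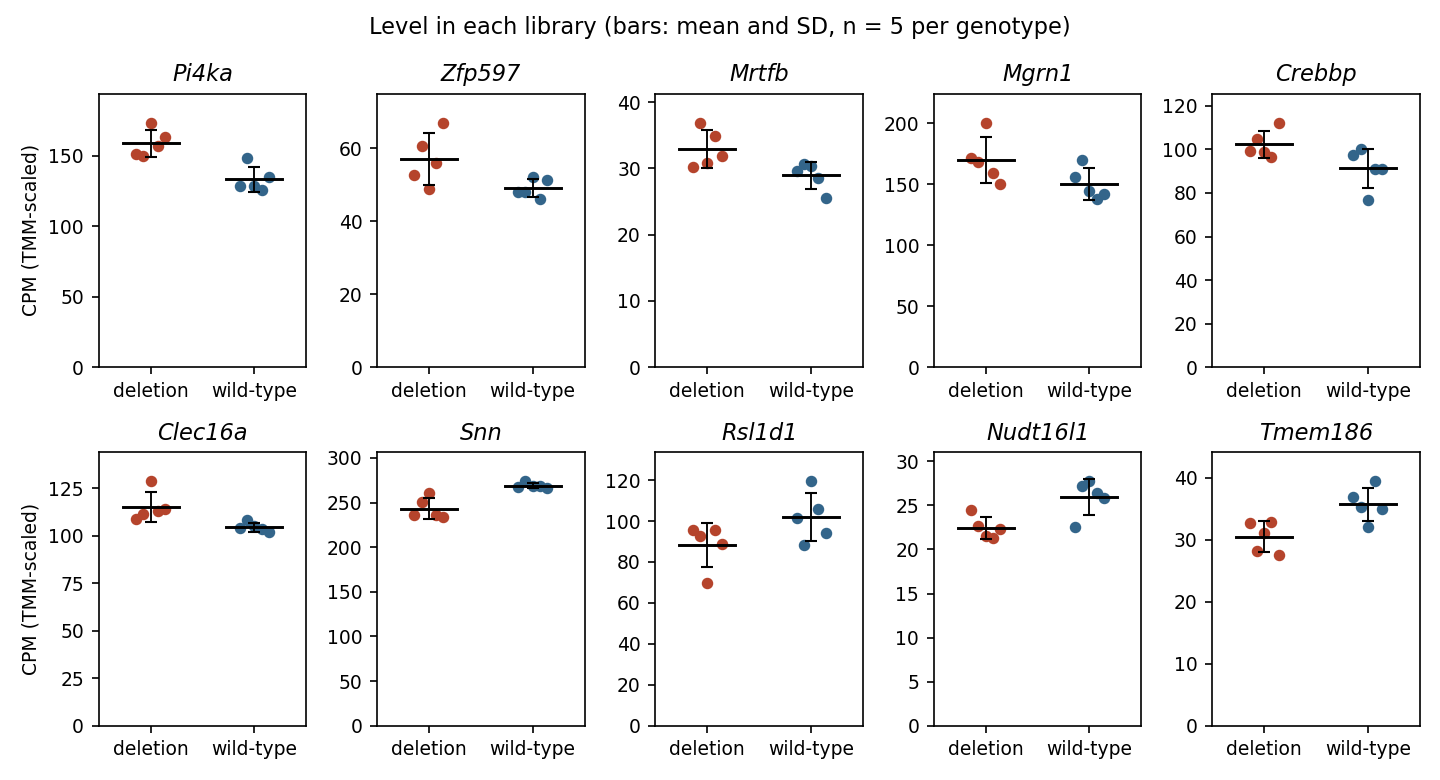
Level in CPM of the 10 members with an unadjusted p under 0.05, 1 point per library, deletion left and wild-type right, with the mean and SD over the points. Pi4ka, Clec16a and Snn have groups that do not overlap, and deletion library 4 (the middle deletion point) stands apart at Clec16a and Rsl1d1.

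Shisa9, an auxiliary subunit of AMPA-type glutamate receptors, had 33.1, 28.3, 25.1, 25.6 and 26.1 CPM in deletion libraries, against 15.6, 28.5, 19.3, 23.4 and 27.5 CPM in wild-type libraries. The groups overlapped and wild-type library 1 was lowest. On the log2 scale the fold change was 0.28 (SE 0.14, 95% interval -0.01 to 0.56), and it was 0.16 without wild-type library 1. None of the 10 tested AMPA receptor genes and partners passed the test, with 7 higher and 3 lower, Cacng4, a receptor partner, having the smallest p at 320.7 ± 24.4 CPM in deletion and 283 ± 15.4 CPM in wild-type midbrain. Emp2, a tetraspan membrane protein, averaged 8.87 ± 1.54 CPM in deletion and 8.53 ± 1.10 CPM in wild-type midbrain, and Tekt5, a tektin of sperm flagella, averaged 4.18 ± 0.555 CPM in deletion and 3.64 ± 1.08 CPM in wild-type midbrain.

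Epithelium markers summed to 2.13 to 3.58 CPM in deletion and 2.95 to 3.96 CPM in wild-type libraries, with Krt5 and Krt14 at 0. Motile cilia markers summed to 33.9 to 47.4 CPM in deletion and 42.7 to 52.4 CPM in wild-type libraries. Ppl, periplakin of cell junctions, had 3, 3, 0, 1 and 3 reads in deletion libraries and 5, 0, 2, 8 and 9 reads in wild-type libraries, and Tmem114, a claudin-like membrane protein, had 0, 0, 3, 0 and 3 reads in deletion libraries and 1, 0, 4, 3 and 1 reads in wild-type libraries. Neither was tested.

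Long transcripts tended to be higher in deletion midbrain, among the members and over all genes alike. Of the 13 members of at least 4000 bases, 11 were higher, with a median log2 fold change of 0.14, and of the 16 shorter members 5 were higher, with a median of -0.06. Over all 14118 tested genes with a length, 65.6% of the 5669 of at least 4000 bases were higher (median 0.05), and 39.3% of the 8449 shorter genes were (median -0.04). As a description, log2 fold change and log2 length had r = 0.34 over the members and 0.30 over all genes, points that share the same 10 libraries, and removal of the trend left 0.04 over the members. The slope of log2 CPM on log2 length ran from -0.05 to 0.10 in the deletion libraries and from -0.06 to -0.01 in the wild-type libraries, and deletion library 4 was the only deletion library below 0. Deletion library 4 was also the highest of its group for 12 of the 29 members, and wild-type library 2 of its own for 15; their part in the members' values was not tested. With the trend removed the median log2 fold change of the chromatin members was 0.03 and that of the lipid and traffic members stayed at 0.15.

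**Figure D5:**
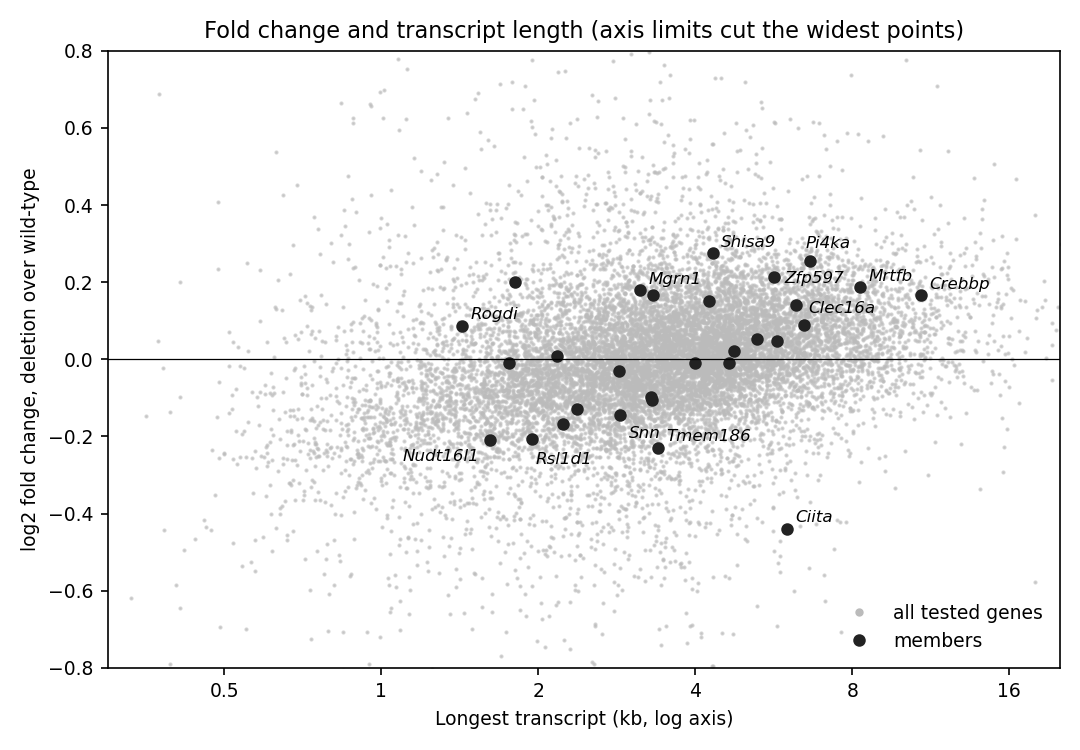
Log2 fold change of deletion over wild-type midbrain against the longest transcript in kb on a log axis, for all tested genes (grey) and the members (black, with the names of some). The long members lie above 0 more often than the short ones, as do all genes; the axes cut the widest points.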

How the data were processed

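Midbrain RNA was measured in 10 libraries, 5 per genotype. The authors deposited raw read counts per gene. The submitters' processing notes name HISAT2, featureCounts and mm39, and the sources used here state no strandedness or settings. Gene names (30648 of 30935 identifiers), order, start distances and promoters came from RefSeq tables on GRCm38.p6. Transcript lengths (92.3% of tested genes with a length) and the strands of genes came from GENCODE M21.

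Counts were filtered with filterByExpr, scaled by TMM and fitted with edgeR 4.0.16 (robust quasi-likelihood, genotype only, two-sided, Benjamini-Hochberg over 15288 genes, threshold 0.05) in R 4.3.3. An SE is the log2 fold change over the root of F. The fit was tested on simulated data. Depth ran from 16246892 to 20255728 counts per library. The design text calls the samples independent, without litters or batches; p-values cover the spread between these samples.

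The members and all lists were chosen with earlier results of these data known. All members are given: in full those that carry a role group, have the smallest p-values or have groups that do not overlap; also the window's nearest non-member by p, and of the partner lists the gene of smallest p, which for some lists is not reported here. Ep300 and Atf7ip are named as the DESeq2 calls; Atf7ip was named after its value was seen.

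Alternatives were RLE and upper-quartile factors, no filter, a replicate block, a minimum of 1 CPM in 5 or more libraries, each library left out, a per-library length trend removed (spline with 4 degrees of freedom, fitted above a log2 CPM of 3), length with GC, DESeq2 1.42.0 and limma-voom (limma 3.58.1). DESeq2 and limma-voom were first run with default settings. After the counts of calls were seen, and seen to differ from those of an earlier analysis of these data, DESeq2 was also run with its filtering set for 0.05 and limma-voom with robust moderation, which gave that analysis's counts; the default fits are the ones quoted unless stated. HAR.321 itself and splicing were not analysed here.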

Additional observations from a re-analysis of the deposited data

Results flagged for a closer look

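Of 58 groups of 5 libraries (29 members in 2 genotypes), 4 had a library far from the others by Dixon's test, and chance flags about 1 in 20 groups. Clec16a in deletion library 4 was the highest of its group at 129 CPM, with the others at 109 to 114 CPM. Rsl1d1 in deletion library 4 was the lowest of its group at 69.5 CPM, with the others at 88.6 to 95.4 CPM. Abat in wild-type library 5 was the highest of its group at 123 CPM, with the others at 111 to 113 CPM. Tvp23a in wild-type library 5 was the lowest of its group at 29.1 CPM, with the others at 32.3 to 33.4 CPM.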

How the results depend on the processing

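The count of genes called over all genes depended on the setting. It was 9 in edgeR, 15 with upper-quartile factors, 69 with no filter, 0 with the replicate block, 0 with the length trend removed, 18 with length and GC removed, 237 in DESeq2, 0 in limma-voom, and 0 to 357 with 1 library left out (357 without deletion library 4, 88 without wild-type library 2). With settings chosen after the default counts were seen, DESeq2 with filtering set for 0.05 called 261 genes and limma-voom with robust moderation called 9. Members called were 0 in edgeR, 1 under both DESeq2 settings, 0 under both limma-voom settings, and 0 to 1 with 1 library left out; the 1 was Pi4ka each time, also without deletion library 4 and without wild-type library 2. Members with an unadjusted p under 0.05 numbered 10 in edgeR, 3 with the replicate block, 6 with length and GC removed, 12 in limma-voom and 11 with robust moderation. With 1 library left out they numbered 4 to 12 (4 without wild-type library 5, 6 without wild-type library 4). The share over all genes was 10.5% in the main edgeR fit and is not given for the other settings. Nothing is read from the counts of members, called or by unadjusted p, since p-values helped to choose them. Genes of the partner lists called were 0 in edgeR, 2 under both DESeq2 settings and 0 to 2 with 1 library left out (2 without deletion library 4, 1 without wild-type library 2). By edgeR the window around Rbfox1 had 0 calls in every width tried, while DESeq2 called 1 gene within 10 Mb (Pi4ka) and 4 on chromosome 16. The correlation of Glyr1 and Ubn1, 0.11, was 0.49 with the length trend removed, -0.54 with length and GC removed (adjusted exact permutation p = 0.0978), and -0.13 to 0.39 with 1 library left out, being -0.0245 without deletion library 4 and -0.0439 without deletion library 5; that of Tmem186 and Pmm2, 0.38, was -0.0228 to 0.72. The causes were not tested. In the replicate block, wild-type library 1 and deletion library 3 had no partner of the same number. Those libraries therefore gave that fit nothing on genotype. Same-numbered libraries of the 2 genotypes correlated at -0.0624 to 0.0461 over the tested genes, after subtraction of genotype means. These values gave no sign of pairing by number, but they cannot show that such samples shared nothing. Of 609 member values under 21 alternatives, 603 moved by less than 1 SD of log2 CPM between libraries of a genotype. Leaving 1 library out can hardly move a value that far. The 2 DESeq2 settings share their fold changes, as do the 2 limma-voom settings. Nothing is read from this count. Across the alternatives 9 members changed sign, none with a main log2 fold change above 0.09 in size. The scarcest tested member, Ciita, had 26 to 63 reads per library and a biological coefficient of variation of 24.7%. Its interval ran from -0.98 to 0.10, and what set that width was not tested.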
